A study of Homo sapiens with 12 samples.

Results

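The genes described here are 7 interleukins, IL18, IL1A, IL1B, IL6, IL11, IL32 and IL33, and the related cytokine LIF. They were taken by gene name from the deposited gene table and make up 8 of its 57773 genes. Of the 8, 5 passed a filter on low counts (IL18, IL1A, IL11, IL32 and LIF) and were tested among 22831 genes. IL1B, IL6 and IL33 had too few counts and are given by their counts. RNA was sequenced from PANC-1, an established epithelioid line grown from a human pancreatic ductal carcinoma, kept at a passage below 30 per the labels. Cells were treated for 24 h with 30 nM chaetocin and 90 nM MLN8237 together (the combination), with 30 nM chaetocin alone, with 90 nM MLN8237 alone, or with the vehicle DMSO, and each of the 4 groups had 3 libraries. Chaetocin is a fungal metabolite known as an inhibitor of the histone methyltransferase SUV39H1 and of thioredoxin reductase, and MLN8237, also called alisertib, blocks Aurora A, a kinase of the mitotic spindle. The labels of the combination write MLN3237, which was read as MLN8237. All libraries come from a single cell line, and nothing in the labels says that libraries of a group were grown apart. The p-values therefore measure only how these libraries vary, which may be technical. The libraries held 49439795 to 63747510 counts, and on the second principal component of log2 CPM (counts scaled to library size) the 3 treated libraries numbered 3 (28.1, 32.2 and 82.7) stood apart from the other 9 (-34.8 to -3.31), so results that rest on them are also given without them.

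Interleukins are secreted proteins by which cells signal to immune, stromal and epithelial neighbours. IL1A, IL1B, IL18 and IL33 belong to the IL-1 family. All of them are made without a classical signal peptide and act through receptors that signal by MYD88 and IRAK kinases to NF-kB. IL1B and IL18 are made as inactive precursors that caspase-1 cleaves in inflammasomes, while IL1A and IL33 are known as alarms released from damaged cells. IL6, IL11 and LIF belong to the IL-6 family, which signals through the shared receptor chain gp130 (IL6ST) to JAK kinases and STAT3. IL32 resembles neither family and is known from NF-kB and interferon responses in human cells. In pancreatic carcinoma, IL1A from tumour cells and IL6 and LIF from fibroblasts are known as part of the exchange between tumour and stroma.

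Relative to vehicle, IL18 was 3.23-fold higher in the combination and 3.10-fold higher with chaetocin, IL1A was 5.47-fold higher in the combination and 3.44-fold higher with chaetocin, and IL32 was lower in both. IL1A passed the filter through the groups in which it is high. A gene was called where its edgeR p, adjusted over all tested genes, was under 0.05. In such bulk RNA, fewer cells that express a gene and less RNA per cell cannot be told apart. IL11 was called higher in the combination, at 2.02-fold, but did not pass with chaetocin alone, and the difference between those groups did not pass either. LIF was called in no comparison, and with MLN8237 alone none of the 5 tested genes was called, where 0.00438% of all genes were. IL6 and IL1B were barely detected, with most of their few counts in the libraries with chaetocin, and IL33 had 2 counts in all. Most genes removed by the filter (72.8% of those with a count) also had more counts in libraries with chaetocin.

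Promoters are shown for the 3 genes that were called in the combination and had an entry in the promoter table, so that the motifs beside their changes can be seen. They are the 250 bases upstream of the most upstream listed start, from RefSeq (GRCh38.p14), 5′ to 3′ on the strand of the gene. IL1A lies at chr2:112784494-112784743 on the minus strand, IL11 at chr19:55370464-55370713 on the minus strand and IL32 at chr16:3065153-3065402 on the plus strand. Capitals mark matches to 6 motifs searched on both strands: the kappaB consensus of NF-kB, TGANTCA of AP-1, TGACGTCA of CREB and ATF factors, TTCNNNGAA of STAT factors, TGACNNNGC of the antioxidant response element and TTNNGCAA of C/EBP factors.
IL1A: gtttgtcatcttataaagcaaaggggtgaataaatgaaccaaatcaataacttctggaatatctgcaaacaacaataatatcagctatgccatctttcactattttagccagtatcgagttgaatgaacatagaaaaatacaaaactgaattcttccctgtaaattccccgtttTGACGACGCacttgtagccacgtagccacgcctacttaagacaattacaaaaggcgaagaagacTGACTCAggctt
IL11: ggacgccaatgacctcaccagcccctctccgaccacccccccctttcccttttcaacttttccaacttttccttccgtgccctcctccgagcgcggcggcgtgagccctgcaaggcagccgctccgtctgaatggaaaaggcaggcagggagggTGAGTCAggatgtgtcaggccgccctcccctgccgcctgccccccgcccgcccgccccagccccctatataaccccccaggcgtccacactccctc
IL32: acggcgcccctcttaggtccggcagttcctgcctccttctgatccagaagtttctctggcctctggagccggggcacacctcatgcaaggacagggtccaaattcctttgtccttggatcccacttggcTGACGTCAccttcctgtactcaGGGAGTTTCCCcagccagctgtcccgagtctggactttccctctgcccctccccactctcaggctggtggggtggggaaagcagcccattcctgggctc

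The IL1A window held the AP-1 letters TGACTCA, which begin 12 bases upstream of the start, and the antioxidant letters TGACGACGC, which begin 76 bases upstream. The IL11 window held TGAGTCA, which reads as an AP-1 match and begins 96 bases upstream. The IL32 window held GGGAGTTTCCC, where kappaB matches on the 2 strands overlap, and TGACGTCA 121 bases upstream. Among 27305 promoters of the same length, TGANTCA was present in 6.57%, TGACNNNGC in 11.1%, the kappaB consensus in 5.07%, TGACGTCA in 1.75%, TTCNNNGAA in 6.76% and TTNNGCAA in 9.12%. Entries were found for 6 of the 8 genes, those other than IL18 and LIF; in the others, IL6 had a kappaB match 73 bases and a C/EBP match 155 bases upstream, IL1B a STAT match at 180 and a C/EBP match at 215, and IL33 no match. These are letters in a window, and binding was not measured.

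IL18, which drives interferon gamma production by lymphocytes and is widely made by epithelial cells, was the most abundant of the 8 genes. Its deposited RPKM, a level per gene length and library total, averaged 56.7 ± 10.3 in the combination, 52.3 ± 7.08 with chaetocin, 20.1 ± 3.56 with MLN8237 and 16.2 ± 0.462 with vehicle (SD, n = 3). In vehicle, on this scale, LIF followed with a level of 10.9 ± 0.815, IL32 with 4.01 ± 0.878, IL11 with 2.0 ± 0.108 and IL1A with 0.0755 ± 0.0107, while IL6 stood at 0.00841 ± 0.00729 and IL1B and IL33 had no count. The gap between neighbours in this order exceeded their SDs from IL18 down to IL1A. In the combination, IL11 averaged 4.38 ± 1.66 RPKM and IL32 2.82 ± 0.271 RPKM, and their order by mean was the reverse of that in vehicle, with the IL11 spread covering the difference.

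Counts scaled to the total of each library (CPM, with TMM scaling) of IL18 were 139, 124 and 174 in the 3 combination libraries and 122, 134 and 163 in the 3 chaetocin libraries. With MLN8237 the values were 46.4, 53.7 and 71.0, and with vehicle 46.1, 44.8 and 44.1. All 6 libraries with chaetocin lay above all 6 without it, and the MLN8237 libraries also lay above those of vehicle, by little in the first. IL18 was 3.23-fold higher in the combination than in vehicle (log2 1.69 ± 0.16 SE, edgeR quasi-likelihood test, adjusted p = 1.18e-05) and 3.10-fold higher with chaetocin than with vehicle (log2 1.63 ± 0.16, adjusted p = 2.88e-05 by edgeR). It was 2.55-fold higher in the combination than with MLN8237 (adjusted p = 5.16e-05 by edgeR). The combination and chaetocin did not differ beyond their spread (log2 0.06, 95% interval -0.29 to 0.40), and MLN8237 against vehicle gave log2 0.34 with an interval of -0.01 to 0.69. Library 3 was the highest for IL18 in all 3 treated groups; without those libraries the change was log2 1.56 in the combination and 1.52 with chaetocin, against vehicle. The span of IL18 (chr11:112013974-112034840 in hg19) lies wholly within that of a long entry named SDHD (chr11:111957627-112064528) on the other strand. That entry had 1786 to 2921 counts per library, and no source used here gives the strand of counting.

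IL1A, which binds the IL-1 receptor without prior cleavage, was low in every group. Its CPM were 1.24, 0.664 and 0.902 in the combination and 0.608, 0.472 and 0.693 with chaetocin, and 0.147, 0.186 and 0.154 with MLN8237 and 0.147, 0.164 and 0.197 with vehicle. These values rest on 80, 38 and 53 counts in the combination, 35, 31 and 40 with chaetocin, 8, 9 and 7 with MLN8237 and 7, 9 and 11 with vehicle. The libraries with chaetocin did not overlap with the others, and those of the combination overlapped with those of chaetocin alone. IL1A reached 10 counts in 7 libraries, all 6 with chaetocin and 1 of vehicle, so it passed the filter through the groups in which it is high. It was 5.47-fold higher in the combination than in vehicle (log2 2.45 ± 0.33, edgeR adjusted p = 0.000105) and 3.44-fold higher with chaetocin than with vehicle (log2 1.78 ± 0.33, edgeR adjusted p = 0.00200). Against MLN8237 the combination was higher by log2 2.52 (edgeR adjusted p = 9.23e-05). The combination exceeded chaetocin by log2 0.67 with a 95% interval of 0.06 to 1.28, which did not pass the test after adjustment (edgeR adjusted p = 0.390).

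Few transcripts of the other IL-1 family members were seen. IL1B, the main inflammasome product, had 3, 0 and 6 counts in the combination and 0, 4 and 2 with chaetocin, and none in the 6 libraries without chaetocin. IL1B summed to 9 counts in the combination (counting interval 4.12 to 17.1), 6 with chaetocin (2.2 to 13.1) and 0 with vehicle (0 to 3.69). The intervals cover counting error only. With 3 counts put in place of the 0 of vehicle, the ratio to vehicle was 2.90 in the combination and 1.84 with chaetocin. These ratios leave out the counting error of the treated groups and are not lower bounds. An exact 2-sided permutation test over the libraries gave p = 0.4 for each of the 2 comparisons with vehicle. IL33, which acts on the receptor IL1RL1, had 2 counts in combination library 1 and 0 in the other 11 libraries. The further IL-1 family ligands IL1RN, IL36A, IL36B, IL36G, IL36RN, IL37 and IL1F10 all had counts in some library, and 0 of these 7 passed the filter. The largest sums over 3 libraries among them were those of IL37, with 22 counts in the combination, 18 with chaetocin, 8 with MLN8237 and 9 with vehicle.

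**Figure D1:**
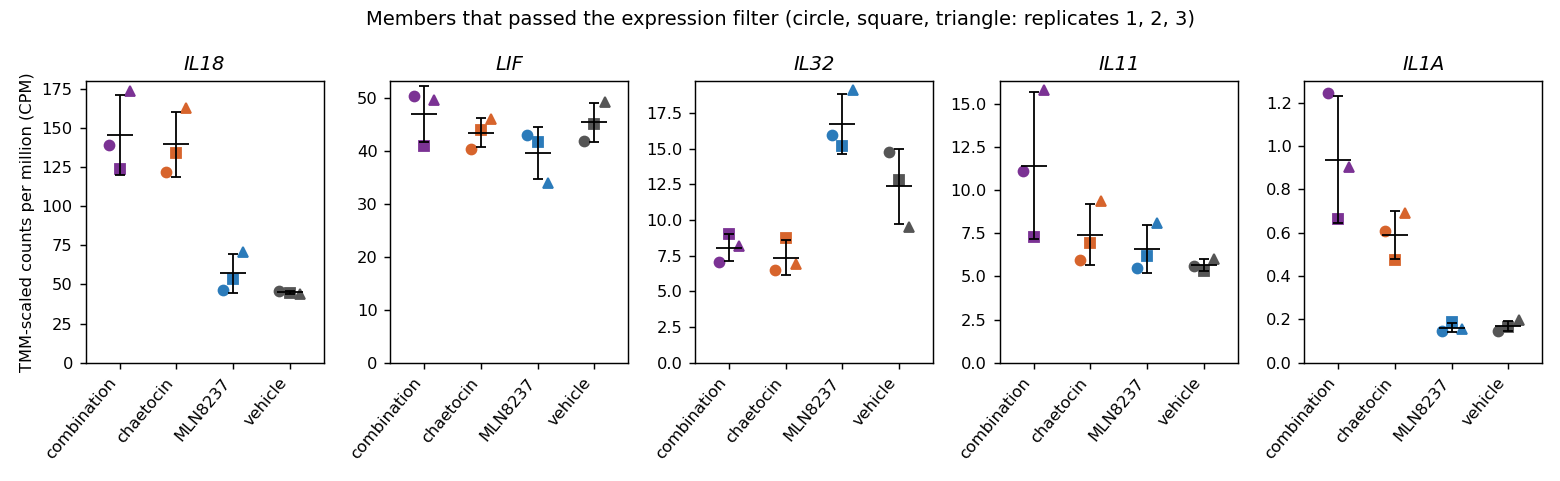
TMM-scaled CPM (vertical axes) in each library for IL18, IL1A, IL11, IL32 and LIF, with groups along the horizontal axes; points are libraries and lines are group means with the SD. IL18 and IL1A stand high in the 6 libraries with chaetocin, IL32 stands low in them, and the LIF groups overlap.

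Of the IL-6 family, LIF was the most abundant per length and was called in no comparison. LIF, which keeps stem cells undifferentiated in mouse cultures and signals through LIFR and gp130, had 50.4, 40.9 and 49.8 CPM in the combination and 40.5, 44.1 and 46.0 CPM with chaetocin. It had 43.1, 41.7 and 34.0 CPM with MLN8237 and 41.9, 45.2 and 49.3 CPM with vehicle. Every pair of groups overlapped. The log2 change was 0.05 in the combination (95% interval -0.20 to 0.30) and -0.06 with chaetocin (-0.31 to 0.19), against vehicle, intervals that lie below those of IL18. The combination against MLN8237 gave log2 0.25 (edgeR adjusted p = 0.0949), which passed the test without combination library 2 (log2 0.33, adjusted p = 0.0384) and under a stricter filter (log2 0.32, adjusted p = 0.0389). LIF (chr22:30636436-30642840 in hg19) overlaps 2 antisense genes with 9 to 67 and 34 to 184 counts per library.

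IL11, which supports platelet precursors and is known as a TGF-beta target in fibroblasts, had 11.1, 7.31 and 15.8 CPM in the combination and 5.95, 6.93 and 9.37 CPM with chaetocin. It had 5.48, 6.18 and 8.12 CPM with MLN8237 and 5.62, 5.31 and 6.01 CPM with vehicle. All combination libraries lay above those of vehicle, but they overlapped with chaetocin and with MLN8237, and library 3 was the highest in each treated group. IL11 was 2.02-fold higher in the combination than in vehicle (log2 1.02 ± 0.25, edgeR adjusted p = 0.00615), and log2 0.72 higher without the 3 treated libraries numbered 3 (adjusted p = 0.00198). Chaetocin against vehicle gave log2 0.39 (95% interval -0.15 to 0.93, edgeR adjusted p = 0.289), and the combination against chaetocin log2 0.62 (0.09 to 1.16, adjusted p = 0.360). The combination against MLN8237 was called at log2 0.79 (edgeR adjusted p = 0.0195), a call lost without combination library 3 (log2 0.49, adjusted p = 0.106), MLN8237 library 1 (0.67, adjusted p = 0.0668) or MLN8237 library 2 (0.75, adjusted p = 0.0556), and with only those groups in the fit (0.80, adjusted p = 0.0543).

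IL6, the inflammatory cytokine that gives the family its name, had 7, 5 and 8 counts in the combination and 6, 10 and 12 with chaetocin, and 2, 2 and 0 with MLN8237 and 0, 2 and 2 with vehicle. Every library with chaetocin exceeded every library without it. Among the 18787 genes with a count that the filter removed, 72.8% had more counts in libraries with chaetocin, which also held more counts in total. Per total library count, without TMM scaling, IL6 was 4.84 times as abundant in the combination as in vehicle (95% counting interval 1.62 to 19.5). It was 6.45 times as abundant with chaetocin as with vehicle (2.26 to 25.3). The exact 2-sided permutation test gave p = 0.1 for both, the smallest that 3 against 3 libraries can give. Fitted with no filter, edgeR gave adjusted p = 0.124 for the combination and 0.0570 for chaetocin. IL6 (chr7:22765503-22771621 in hg19) shares 1737 bases with the antisense gene AC073072.5, which had 3, 4 and 8 counts in the combination, 2, 6 and 6 with chaetocin and 0 in the 6 libraries without chaetocin.

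**Figure D2:**
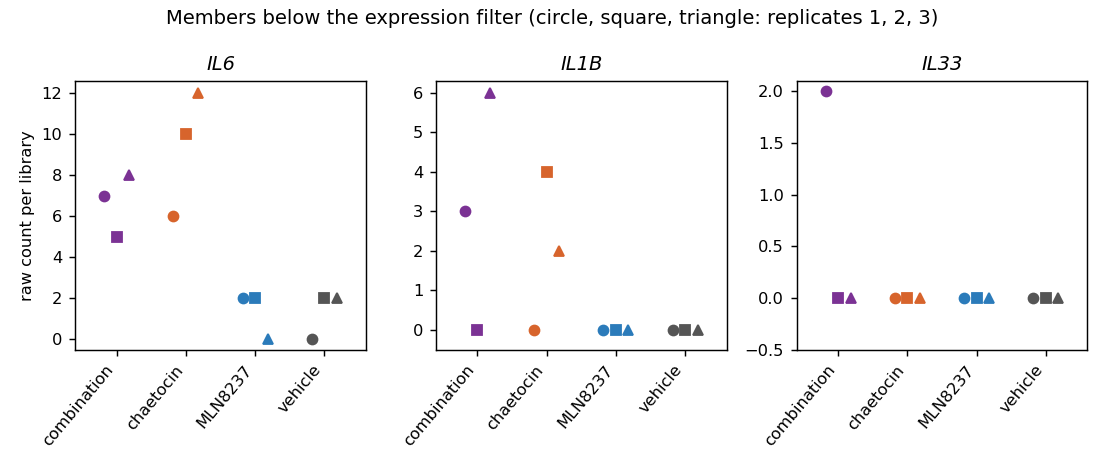
Raw counts (vertical axes) of IL6, IL1B and IL33 in each library, with groups along the horizontal axes. IL6 has 5 to 12 counts in the libraries with chaetocin and 0 to 2 in the others, IL1B has counts in 4 libraries, all with chaetocin, and IL33 in 1.

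IL32 was the only tested gene of the 8 to fall. It had 7.08, 8.99 and 8.15 CPM in the combination and 6.48, 8.73 and 6.89 CPM with chaetocin, and 16.0, 15.2 and 19.1 CPM with MLN8237 and 14.7, 12.8 and 9.53 CPM with vehicle. The 6 libraries with chaetocin lay below the 6 without it, and the MLN8237 libraries lay above those of vehicle. IL32 fell with chaetocin against vehicle (fold 0.597, log2 -0.74 ± 0.17, edgeR adjusted p = 0.00708) and in the combination against MLN8237 (fold 0.482, log2 -1.05, adjusted p = 0.000389). It also fell in the combination against vehicle (fold 0.654, log2 -0.61 ± 0.17, edgeR adjusted p = 0.0124), a call lost without combination library 1 (log2 -0.52, adjusted p = 0.0656) or vehicle library 1 (-0.48, adjusted p = 0.0591). MLN8237 against vehicle gave log2 0.44 with a 95% interval of 0.07 to 0.80 and did not pass after adjustment (unadjusted p = 0.0221, adjusted p = 0.516 by edgeR). IL32 (chr16:3115298-3131908 in hg19) overlaps a small nuclear RNA pseudogene with 1 to 15 counts and an antisense RNA with 0 to 2 counts per library.

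Counted together, 3 of the 5 tested genes were called with chaetocin against vehicle, where 24.5% of all tested genes were called. In the combination 4 of 5 were called against vehicle (38.5% of all genes) and 4 of 5 against MLN8237 (45.9% of all genes). Each of these counts includes IL1A, which had passed the filter through the groups in which it is high. These shares of all genes are large, so a count among 5 genes says little about interleukins as a group. MLN8237 against vehicle called 0 of 5 by edgeR, DESeq2 and limma-voom, with 1 at an unadjusted edgeR p under 0.05, and 0.00438% of all genes were called by edgeR, with 8.49% at an unadjusted p under 0.05. The combination against chaetocin called 0 of 5 by all 3 tools, with 2 at an unadjusted p under 0.05 (IL1A and IL11); 0% of all genes were called by edgeR, with 2677 (11.7%) at an unadjusted p under 0.05, while DESeq2 called 296 and limma-voom 1. The interaction, the log2 change in the combination less those of the single compounds added up, was 0.74 for IL1A, 0.40 for IL11, 0.31 for LIF, -0.28 for IL18 and -0.31 for IL32. It was called for 0 of the 5 by all 3 tools and had 0 at an unadjusted edgeR p under 0.05; 0% of all genes were called by edgeR, with 3108 (13.6%) at an unadjusted p under 0.05, and every 95% interval among the 5 included 0. The 3 comparisons with vehicle share its libraries.

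**Figure D3:**
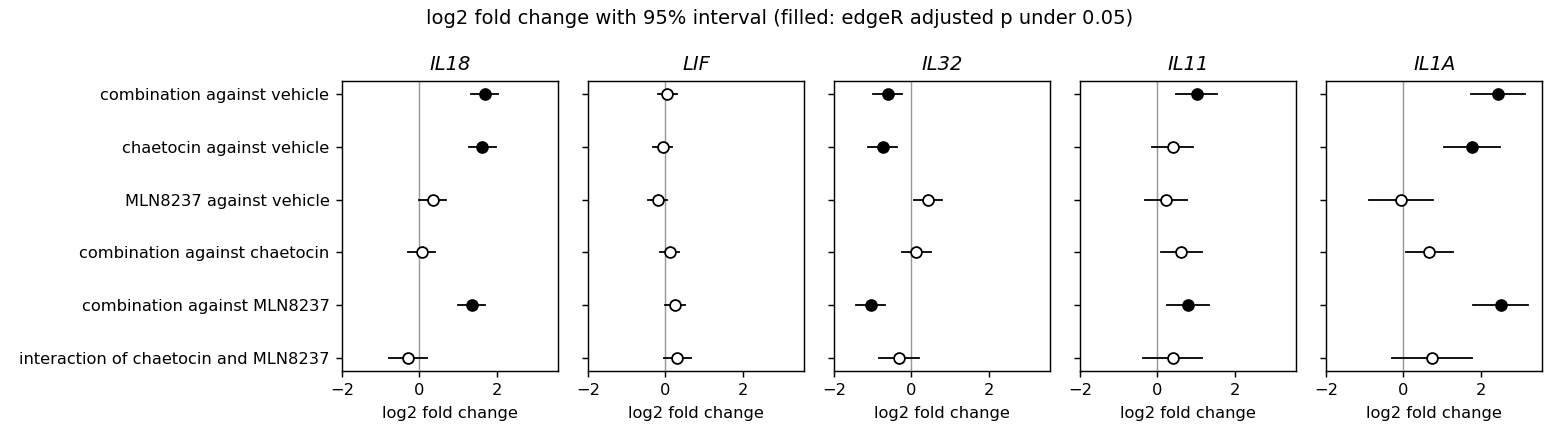
Log2 fold changes with their 95% intervals (horizontal axis) of the 5 tested genes in each comparison. IL18 and IL1A lie right of 0 and IL32 left of 0 wherever a group with chaetocin is set against a group without it, and no change of MLN8237 against vehicle was called.

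Receptors for these cytokines were also measured, on lists of genes chosen by their known roles. Of the receptors and decoys of IL-1, IL-18 and IL-33, 7 were tested. Against vehicle, 3 rose and 1 fell in the combination (median log2 0.35, against 0.02 over all genes). With chaetocin against vehicle, 3 rose and 0 fell (median 0.28, against 0.01 over all genes). Without the 3 treated libraries numbered 3, 2 rose and 1 fell with chaetocin. With replicate number as a block in the fit, 3 rose and 3 fell with chaetocin. Over all genes 20.1% rose and 18.3% fell in the combination, and 12.6% rose and 11.9% fell with chaetocin. IL1RL1, the IL-33 receptor, averaged 1.76 ± 0.617 CPM in the combination and 0.999 ± 0.314 with chaetocin, against 0.335 ± 0.0376 in vehicle (SD, n = 3), and rose in both (edgeR adjusted p = 0.000158 and 0.00504). IL1R1, the signalling receptor of IL1A and IL1B, averaged 22.4 ± 3.58 CPM in the combination and 19.6 ± 1.26 with chaetocin, against 14.2 ± 0.466 in vehicle (adjusted p = 0.000941 and 0.0137 by edgeR). The chaetocin call of IL1R1 was lost without chaetocin library 2 (log2 0.43, adjusted p = 0.063), vehicle library 2 (0.46, 0.0514) or vehicle library 3 (0.44, 0.0565). SIGIRR, a brake on this receptor family, fell in the combination to 30.5 ± 3.68 CPM, against 50.6 ± 4.28 in vehicle (adjusted p = 0.00197 by edgeR). The third gene that rose, IL18R1, overlaps IL1RL1 in the genome, stood under 0.3 CPM in every group mean, passed the filter only through the groups in which it is high (41 counts in the combination and 44 with chaetocin, against 5 with MLN8237 and 8 with vehicle), and lost its call without any of 4 libraries in either comparison (edgeR adjusted p = 0.0712 to 0.0975 in the combination and 0.0821 to 0.103 with chaetocin).

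Over all genes 20.1% rose and 18.3% fell in the combination, and 12.6% rose and 11.9% fell with chaetocin. IL11RA and IL27RA fell among the gp130 family receptors. Of 8 tested, 0 rose and 3 fell in the combination (median log2 -0.09), and 0 rose and 2 fell with chaetocin (median -0.36); 4 fell with chaetocin without the 3 treated libraries numbered 3, and 1 rose in the combination. IL11RA, the specific receptor of IL11, averaged 8.08 ± 0.809 CPM in the combination and 8.29 ± 0.277 with chaetocin, against 13.1 ± 0.859 in vehicle, and fell in both (adjusted p = 0.00112 and 0.00290 by edgeR); it overlaps GALT and CCL27. IL27RA, the receptor of IL-27, fell to 10.2 ± 1.58 CPM in the combination and 10.5 ± 0.551 with chaetocin, against 21.5 ± 1.02 in vehicle (adjusted p = 2.4e-05 and 6.2e-05 by edgeR). The shared chain IL6ST had 192 ± 44.5 CPM in the combination and 155 ± 24.3 with chaetocin, against 208 ± 8.84 in vehicle. LIFR had 92.2 ± 24.2 CPM in the combination and 83.8 ± 17.9 with chaetocin, against 84.1 ± 9.38 in vehicle. Neither was called with all libraries. Without the 3 treated libraries numbered 3, LIFR was called higher in the combination (log2 0.35, edgeR adjusted p = 0.00448). IL6ST was then called lower with chaetocin (log2 -0.30, edgeR adjusted p = 0.033). That IL6ST change was also called with replicate number as a block (edgeR adjusted p = 0.0162) and with only those groups in the fit (0.0111).

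Among 18 tested genes of inflammasomes and cytokine processing, 4 rose and 5 fell in the combination (median log2 -0.13) and 2 rose and 5 fell with chaetocin (median -0.18). The shares over all genes were 20.1% higher and 18.3% lower in the combination, and 12.6% higher and 11.9% lower with chaetocin. NLRP3, an inflammasome sensor, averaged 2.75 ± 0.803 CPM in the combination and 1.94 ± 0.248 with chaetocin, against 0.448 ± 0.059 in vehicle, and rose in both (edgeR adjusted p = 3.5e-05 and 0.000331). NLRP1, another sensor, averaged 1.82 ± 0.704 CPM in the combination and 1.29 ± 0.15 with chaetocin, against 0.236 ± 0.0507 in vehicle (adjusted p = 2.6e-05 and 0.00021 by edgeR). GSDMD, the pore through which cleaved IL1B and IL18 leave cells, fell to 17.7 ± 1.03 CPM in the combination and 21.1 ± 1.54 with chaetocin, against 28.3 ± 0.351 in vehicle (adjusted p = 0.000904 and 0.0238 by edgeR). CAPN1, a calpain, the protease class that cleaves IL1A, fell to 114 ± 8.17 CPM in the combination and 123 ± 1.28 with chaetocin, against 179 ± 5.37 in vehicle (adjusted p = 9.2e-05 and 0.000687 by edgeR). Chosen for their roles after their values were seen, the adaptor PYCARD fell to 17.0 ± 2.29 CPM in the combination and 22.0 ± 3.91 with chaetocin, against 34.9 ± 3.04 in vehicle (adjusted p = 0.00241 and 0.0396 by edgeR), and CASP1, which cleaves IL18, was at 0.171 ± 0.0597 CPM in the combination and 0.181 ± 0.169 with chaetocin, against 0.306 ± 0.170 in vehicle, and was not called.

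Signalling genes moved in both directions, as did genes in general. Over all genes 20.1% rose and 18.3% fell in the combination, and 12.6% rose and 11.9% fell with chaetocin. On the IL-1 receptor and MYD88 list of 17 tested genes, 4 rose and 3 fell in the combination (median log2 0.01) and 3 rose and 2 fell with chaetocin (median -0.02); IRAK2, a kinase of this cascade, fell to 30.3 ± 0.732 CPM in the combination and 32.8 ± 1.2 with chaetocin, against 50.7 ± 1.28 in vehicle (adjusted p = 1.7e-05 and 0.000107 by edgeR). On the JAK, STAT and SOCS list of 22, 4 rose and 7 fell in the combination (median -0.11) and 1 rose and 4 fell with chaetocin (median -0.045). Without the 3 treated libraries numbered 3, 7 rose and 8 fell in the combination and 5 rose and 4 fell with chaetocin. STAT3, the factor gp130 signals to, fell to 179 ± 31.0 CPM in the combination and 190 ± 30.8 with chaetocin, against 298 ± 22.1 in vehicle (adjusted p = 0.00315 and 0.0111 by edgeR); without chaetocin library 3 its chaetocin value was log2 -0.53 (adjusted p = 0.0515). SOCS1, a feedback inhibitor of JAK kinases, rose to 10.1 ± 2.65 CPM in the combination and 9.13 ± 3.27 with chaetocin, against 3.14 ± 0.451 in vehicle (adjusted p = 0.000614 and 0.00208 by edgeR), and overlaps RMI2. Of 13 tested genes known as gp130 or STAT3 targets, 5 rose and 2 fell in the combination (median 0.29) and 5 rose and 1 fell with chaetocin (median 0.088). The kinase PIM1 had the smallest p among them, with 61.4 ± 1.08 CPM in the combination and 74.0 ± 1.17 with chaetocin, against 35.8 ± 0.773 in vehicle.

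Factors that destabilise or hold cytokine mRNA showed 5 higher and 3 lower of 16 in the combination (median log2 -0.025) and 1 higher and 1 lower with chaetocin (median -0.0012), or 3 higher and 3 lower with chaetocin without the 3 treated libraries numbered 3. The shares over all genes were 20.1% higher and 18.3% lower in the combination, and 12.6% higher and 11.9% lower with chaetocin. ZFP36 (tristetraprolin), which speeds the decay of cytokine mRNAs, averaged 310 ± 55.6 CPM in the combination and 218 ± 26.3 with chaetocin, against 126 ± 8.64 in vehicle (edgeR adjusted p = 1.7e-05 and 0.000943). TIA1, a repressor of cytokine translation, fell to 49.7 ± 7.75 CPM in the combination and 52.9 ± 4.29 with chaetocin, against 80.6 ± 6.36 in vehicle (adjusted p = 0.000713 and 0.00326 by edgeR). In every list, MLN8237 against vehicle and the combination against chaetocin called 0 genes, where 0.00438% and 0% of all genes were called.

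**Figure D4:**
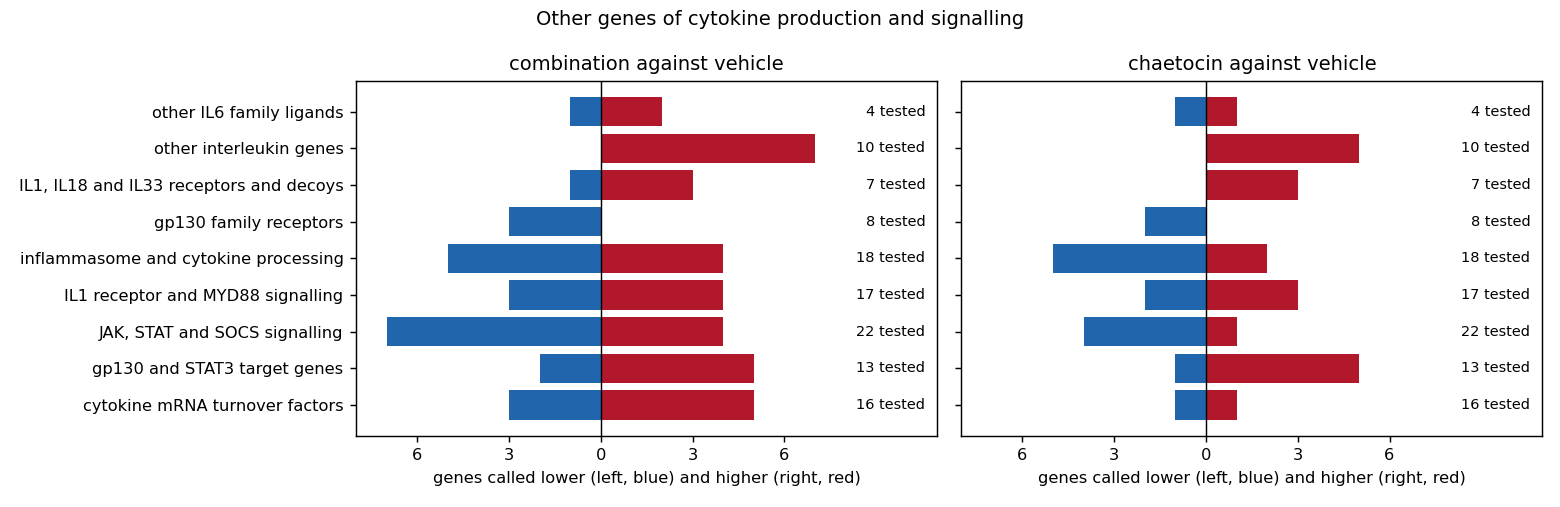
Number of tested genes of each list (horizontal axis) that rose or fell in the comparisons with vehicle. In the combination 7 of 10 other interleukins rose and 0 fell (7 and 1 without the 3 treated libraries numbered 3), with IL5 and IL12B past the filter only through the groups in which they are high. Of 22 JAK, STAT and SOCS genes 4 rose and 7 fell in the combination (7 and 8 without those libraries). Over all genes 20.1% rose and 18.3% fell.

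Of 10 other tested interleukins, 7 rose and 0 fell in the combination (median log2 1.3) and 5 rose and 0 fell with chaetocin (median 0.79), where 20.1% of all genes rose in the combination and 12.6% with chaetocin. Without the 3 treated libraries numbered 3, 7 rose and 1 fell in the combination. Among those that rose in both, IL5 and IL12B passed the filter only through the groups in which they are high, and of all genes under 1 CPM on average, as these are, 27.3% rose in the combination and 15.0% with chaetocin. The chaetocin call of IL12B was lost without chaetocin library 3 (log2 2.70, edgeR adjusted p = 0.058), vehicle library 2 (3.21, 0.0506) or vehicle library 3 (2.28, 0.0704). IL23A, a subunit of IL-23, averaged 2.70 ± 0.9 CPM in the combination and 1.19 ± 0.192 with chaetocin, against 0.510 ± 0.0861 in vehicle (adjusted p = 7.2e-05 and 0.0109 by edgeR). IL5, a growth factor of eosinophils, summed to 226 counts in the combination, 56 with chaetocin, 8 with MLN8237 and 3 with vehicle, and overlaps RAD50. Of 4 tested IL-6 family ligands, 2 rose and 1 fell in the combination (median log2 -0.1) and 1 rose and 1 fell with chaetocin (median 0.0087). Without the 3 treated libraries numbered 3, 2 rose and 2 fell in the combination and 1 rose and 2 fell with chaetocin. EBI3, a subunit of IL-27 and IL-35, fell to 1.02 ± 0.211 CPM in the combination and 0.863 ± 0.189 with chaetocin, against 2.46 ± 0.659 in vehicle (adjusted p = 0.00241 and 0.00158 by edgeR).

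The genes whose levels ran most like those of the tested members over the 12 libraries were found by Pearson correlation of log2 CPM among 12594 genes averaging at least 5 CPM. This describes shared levels across libraries that also share treatment and depth. IL18 was closest to GLA, a lysosomal galactosidase, CBR1, a carbonyl reductase, and CLDN4, a tight junction protein (r = 0.995 each). IL1A was closest to CAB39 (0.992), GEM (0.987) and ARRDC3 (0.987), and IL11 to FAM214B (0.974), AP5Z1 (0.971) and CRTC2 (0.969). IL32 was closest to HLA-B, an antigen-presenting molecule (0.975), IRF2BP1 (0.964) and IFI6, an interferon-induced gene (0.963). LIF was closest to TNFRSF10A, a death receptor (0.906), POM121B (0.888) and CDC42SE1 (0.886).

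Libraries with chaetocin had counts in 30980 to 33443 genes, against 27987 to 29771 without it. Markers of epithelial and ductal cells, all 7 detected, summed to 1950 to 2280 CPM in the combination, 2360 to 2530 with chaetocin, 4480 to 5250 with MLN8237 and 4170 to 4780 with vehicle. KRT8 and KRT18 were the most abundant of them, at 1050 and 753 CPM in the combination and 2290 and 1630 with vehicle. KRT7 averaged 4.85 CPM in the combination, 5.72 with chaetocin, 5.71 with MLN8237 and 4.13 with vehicle. Of the 7, 0 rose and 6 fell in the combination and 0 rose and 5 fell with chaetocin, against vehicle. Acinar and endocrine sums stayed at or under 0.425 CPM with PNLIP and INS at 0 in all libraries, and MS4A1 of the lymphoid list was also at 0; the lymphoid sum was 0.332 to 1.05 CPM in the combination, 0.417 to 0.520 with chaetocin, 0.103 to 0.241 with MLN8237 and 0.0912 to 0.286 with vehicle. Markers of myeloid cells, a known source of IL1B and IL18, summed to 170 to 237 CPM in the combination, 168 to 235 with chaetocin, 173 to 204 with MLN8237 and 157 to 183 with vehicle, and the leukocyte marker PTPRC among them averaged 0.667 CPM in the combination, 0.38 with chaetocin, 0.0146 with MLN8237 and 0 with vehicle, while LST1 averaged 0.103 CPM in the combination, 0.0673 with chaetocin, 0.19 with MLN8237 and 0.264 with vehicle. CD68 made up most of the myeloid sum, at 191 CPM in the combination, 188 with chaetocin, 180 with MLN8237 and 164 with vehicle. Of 8 tested myeloid markers, 3 rose and 0 fell in the combination and 2 rose and 1 fell with chaetocin, against vehicle. Among them, PTPRC and CSF1R passed the filter only through the groups in which they are high. PTPRC summed to 122 counts in the combination, 68 with chaetocin, 2 with MLN8237 and 0 with vehicle, and CSF1R to 175, 101, 2 and 8. Of all genes under 1 CPM on average, as both are, 27.3% rose in the combination and 15.0% with chaetocin. Over all genes 20.1% rose and 18.3% fell in the combination, and 12.6% rose and 11.9% fell with chaetocin. Of the 10 myeloid markers, 0 were without counts in the combination, 1 with chaetocin, 1 with MLN8237 and 2 with vehicle. Markers of fibroblasts, a known source of IL6 and LIF, summed to 33.6 to 49.0 CPM in the combination, 55.3 to 63.6 with chaetocin, 54.5 to 62.9 with MLN8237 and 64.7 to 80.8 with vehicle. COL1A1 made up most of that sum, at 39.3 CPM in the combination, 58.0 with chaetocin, 55.8 with MLN8237 and 70.6 with vehicle. Endothelial markers summed to 1.47 to 4.56 CPM in the combination, 1.46 to 1.85 with chaetocin, 0.0551 to 0.207 with MLN8237 and 0.0715 to 0.182 with vehicle. The part of these markers, of depth or of library 3 in the changes of the 8 genes was not tested beyond the values given. Transcripts of the compounds' known targets do not measure inhibition: TXNRD1 averaged 1620 ± 173 CPM in the combination, 1780 ± 123 with chaetocin, 597 ± 120 with MLN8237 and 740 ± 42.8 with vehicle, and over the same 3 libraries a group AURKA averaged 247 ± 22.7 CPM in the combination, 205 ± 10.1 with chaetocin, 245 ± 9.13 with MLN8237 and 206 ± 6.08 with vehicle. SUV39H1 averaged 37.3 ± 5.26 CPM in the combination, 39.1 ± 0.467 with chaetocin, 50.7 ± 4.20 with MLN8237 and 46.9 ± 0.529 with vehicle.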

How the data were processed

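Per the file headers, the authors deposited raw counts and RPKM of Ensembl genes for each library, with gene positions. The submitters' processing notes name hg19, HTSeq, CASAVA 1.9 and TopHat 12.0.6 (so written), and give no roles. The deposited RPKM values served only to compare levels between genes. Counts were analysed with edgeR 4.0.16 in R 4.3.3: default filter by group (about 10 counts in 3 libraries), TMM scaling, 4 group means over 12 libraries, the robust quasi-likelihood F test, and Benjamini-Hochberg adjustment over 22831 genes with calls at 0.05. CPM are TMM-scaled. Genes removed by the filter were compared by exact permutation and by counting intervals at 95%. The step was tested on simulated counts. Alternatives were RLE scaling, no filter, a filter of 1 CPM in 6 libraries, DESeq2 1.42.0, limma-voom 3.58.1, only the groups compared, a replicate block, and libraries left out. The labels do not say what a replicate number shares, and same-numbered libraries deviated with correlations of -0.153 to 0.462, so numbers were not taken as pairs. Within groups, libraries varied by more than counting noise, at a chi-square of 5.74 to 126 per gene. The genes and lists were chosen with earlier results of these data known. Named are the 8 genes, genes among the up to 4 of each list with the smallest p in chaetocin or in the combination against vehicle, and the 3 genes most alike to each tested gene. Not every gene this rule gives is printed. Named outside it are PYCARD, CASP1, markers, targets of the compounds and overlapping genes. Untested genes such as IL37, IL17F, IL13, OSM and IL1RL2 also fall outside it.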

Additional observations from a re-analysis of the deposited data

How the results depend on the processing

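Over all alternatives, the 5 tested genes in 6 comparisons gave 438 values, of which 426 kept their direction and side of the threshold, 6 lost a call, 2 gained one and 4 changed sign. The sign changes were IL18, combination against chaetocin, without combination library 3 (-0.0891) or chaetocin library 1 (-0.0399), over a range of -0.0891 to 0.175 with a library left out, IL1A, MLN8237 against vehicle, without vehicle library 3 (0.0501; range -0.18 to 0.0501), and LIF, combination against vehicle, without vehicle library 1 (-0.0196; range -0.0196 to 0.128); none of these had been called. Of 11 calls among the 5 genes, 2 were lost without some library and 0 without the 3 treated libraries numbered 3, and IL1A gave no value under the stricter filter. Leaving out each library gave 3 called genes with chaetocin each time and 3 to 4 in the combination, against vehicle, and 3 to 5 in the combination against MLN8237. Over all genes, 5591 were called with chaetocin against vehicle and 3704 to 4705 with a library left out, the fewest without vehicle library 2. MLN8237 against vehicle called 1 gene, and 0 under the stricter filter or with only the groups compared (0 to 1 with a library left out). The combination against chaetocin called 0, with 36 under no filter, 296 by DESeq2, 1 by limma-voom and 0 to 573 with a library left out, the most without combination library 2. The interaction called 0, with 2 under no filter and 15 by DESeq2. With the replicate block, 3, 0, 4, 0, 4 and 0 of the 5 genes were called in the 6 comparisons, as without it, and 20 of 36 pairings of a library with another group were closest to the same number; over all genes the block gave 6798 calls with chaetocin and 11768 in the combination against MLN8237. With chaetocin against vehicle the block gave 3 higher and 3 lower of the 7 receptors and decoys of IL-1, IL-18 and IL-33, and 0 higher and 4 lower of the 8 gp130 family receptors. Of 63 calls of named list genes, 9 were lost without some library. Of 560 list counts, 84 moved by over 1.5 times. Depth limits IL1B, IL6 and IL33, for which a few counts decide every value; the cause of the other changes was not tested.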

Other observations

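Further cytokine and receptor genes of the lists stayed below the filter but were not silent. Of 31 such genes, 5 had no count in any library, and the other 26 all had more counts in the 6 libraries with chaetocin than in the 6 without it. Of 18787 genes removed by the filter that had a count, 72.8% had more counts in libraries with chaetocin, which also held more counts in total. IL17F, a cytokine of T helper cells, had 11, 5 and 10 counts in the combination, 3, 2 and 0 with chaetocin and 0 in all libraries without chaetocin. IL13, a type 2 cytokine, had 4, 4 and 11 counts in the combination, 0, 2 and 0 with chaetocin and 0 without chaetocin. OSM, an IL-6 family ligand, had 5, 6 and 11 counts in the combination, 0, 0 and 1 with chaetocin, 1, 1 and 0 with MLN8237 and 0, 2 and 1 with vehicle. IL17F, IL13 and OSM had counts too low for the test, and these 3 were picked after their values were seen. How many other genes below the filter had more counts in the combination than with chaetocin was not counted. IL1RL2, the receptor of the IL-36 cytokines, had 12, 5 and 11 counts in the combination, 8, 0 and 0 with chaetocin and 0 without chaetocin, so the combination overlapped with chaetocin alone.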
